A study of Mus musculus with 3 samples.

Results

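The genes described here are 9 that mark megakaryocytes and the platelets they shed: the chemokines Pf4 and Ppbp, the integrin chains Itga2b and Itgb3, the von Willebrand receptor subunits Gp9, Gp1bb and Gp5, the adhesive ligand Vwf, and the granule receptor Treml1. They were found through the RefSeq accession that the array gives for each probe, which led to 12 of the 39429 non-control probes. All 9 genes were among the 19803 genes tested. The cultures were mouse embryoid bodies, balls of stem cells that give rise to tissues of all germ layers, at day 8 of a cardiac differentiation. Each of 3 2-colour Agilent arrays carried RNA of a Hopx-/- culture (null) and of a Hopx+/- culture (heterozygous), and no wild-type culture was used. Both kinds of stem cells came from blastocysts of embryonic day 3.5, grown on STO feeders with LIF and a MEK1 inhibitor, and later on embryonic fibroblast feeders. Embryoid bodies of both genotypes were made in hanging drops and plated in medium holding VEGF (5 ng/ml), bFGF (10 ng/ml), FGF10 (12.5 ng/ml), ascorbic acid (1 mM) and Glutamax (2 mM). The labels do not say how many stem cell lines stood behind the replicates, so the p-values may reflect technical spread alone, and genotype cannot be told apart from a difference between lines.

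Megakaryocytes arise from blood progenitors, and in the embryo the earliest of them appear in the yolk sac beside primitive red cells. GATA1 with its partner FOG1, FLI1, RUNX1, TAL1 and NFE2 drive their genes. Platelets first tether to von Willebrand factor through the GPIb-IX-V complex and then bind fibrinogen through the integrin of the Itga2b and Itgb3 chains. Their alpha granules hold chemokines, von Willebrand factor and the receptor TREML1. Itga2b, known as CD41, also marks the first blood progenitors of the mouse embryo, and Itgb3 and Vwf are made by other cells too, Vwf above all by endothelium.

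The labels put the null culture in the Cy5 channel of every array, but the direction of replicate 3 is not settled. As labelled, its log2 ratios ran against replicate 1 (r = -0.874 across probes) and replicate 2 (r = -0.874), while replicates 1 and 2 ran together (r = 0.924). The authors' deposited table turns replicate 3, having r = -0.867 with the normalized ratios of this array as labelled. Hopx, the inactivated gene, had log2 ratios of null over heterozygous of -2.98 and -2.97 on replicates 1 and 2, and of 3.45 on replicate 3 as labelled. Replicate 3 was therefore turned in every value below unless stated, and its 2 channels are named by genotype as turned. The scanner software marked 60.8% to 72.0% of probes as well above background for the null RNA, and 61.2% to 64.8% for the heterozygous RNA. The 3 arrays limit the precision. Of 15 cardiac muscle markers, 0 were higher and 15 were lower in null cultures, with a median log2 ratio of -3.29, led by the myosin chains Myh6 (-5.31), Myh7 (-5.11), Myl4 (-4.77) and Myl7 (-4.11).

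Most of the platelet genes were higher in null cultures, led by the granule chemokine Pf4 at 15.1-fold and the granule receptor Treml1 at 6.92-fold. At an adjusted p under 0.05 by limma, 8 of the 9 rose, and 30.2% of all genes tested did so. The exception was Vwf, the 1 member that fell, as did 30.1% of all genes. Ppbp passed the filter through its null signal alone. With both channels required to be well above background, 7 of 8 members rose, as did 5386 of 18052 genes. Because 60.4% of all genes tested were called in either direction, a call in itself says little. The size of the ratio sets 6 of the 9 apart. Gp5, Gp1bb and Vwf (log2 ratios 0.59, 0.35 and -0.40) ranked 2619, 4680 and 15654 from the highest. The members were chosen with earlier results of these data known. At least 2-fold rises were found for 6 of the 9 and for 4.87% of all genes, and at least 4-fold rises for 3 of the 9 and for 0.571% of all genes. On all 3 arrays the ratio was above 0 for 8 of the 9 and for 37.7% of all genes. The median log2 ratio was 1.52 over the members and 0.0034 over all genes tested. With replicate 3 as labelled, limma called 0 members and 0 genes in all (0%), 0 members and 61 genes (0.308%) had an unadjusted p under 0.05, and the members' median was 0.42. In whole cultures, more cells of a type and more RNA per cell cannot be told apart.

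**Figure D1:**
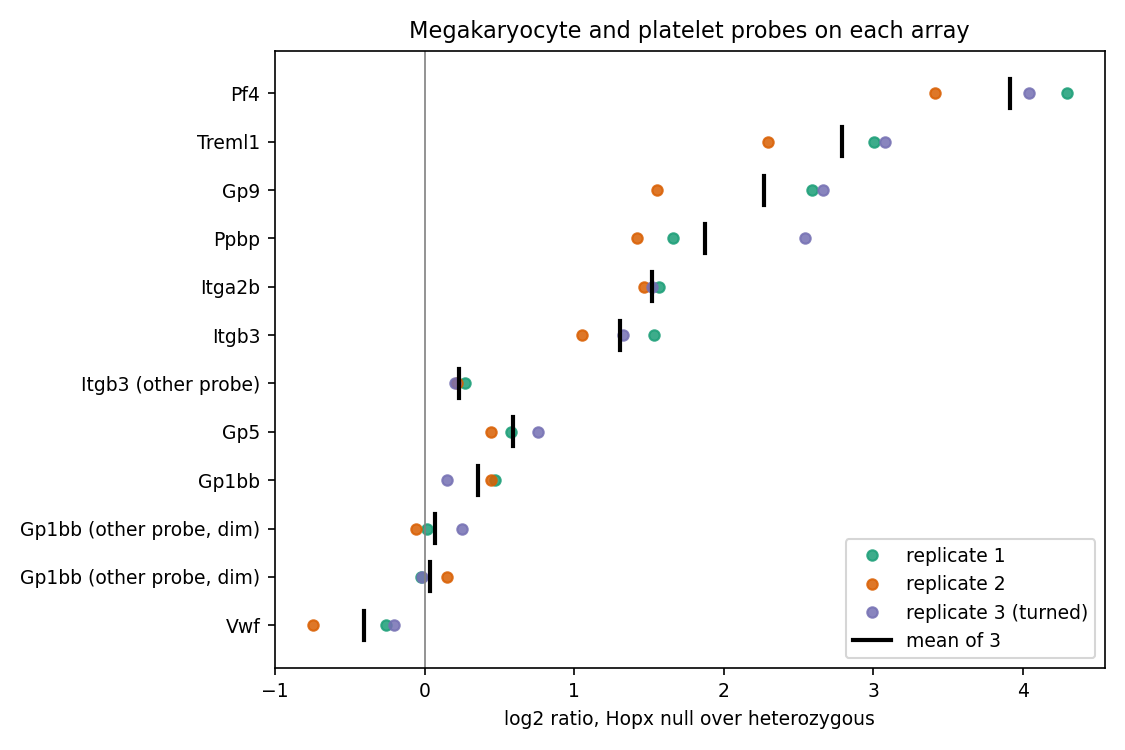
Log2 ratio of null over heterozygous (horizontal axis) for all 12 probes of the 9 genes, with a point for each array, replicate 3 turned, and a black bar at the mean of 3. Pf4 lies between 3.42 and 4.29, 2 dim Gp1bb probes lie about 0, and Vwf lies below 0 on all 3 arrays.

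Both alpha granule chemokines were higher in null cultures. Pf4, platelet factor 4, is a CXC chemokine that binds heparin. Its normalized log2 intensity was 13.18, 12.38 and 13.24 in the null cultures, against 8.89, 8.97 and 9.20 in the heterozygous cultures. The groups were far apart, the lowest null culture standing above the highest heterozygous culture, and before any correction the spot read 10163, 6114 and 13741 in null cultures, against 293, 417 and 506 in heterozygous cultures. The log2 ratio was 3.92 (SE 0.15, n = 3 arrays, limma adjusted p = 3.72e-07), higher on 3 of 3 arrays, and it was 1.22 with replicate 3 as labelled. Its rank from the highest among the 19803 genes was 3, or 9 with replicate 3 as labelled. The 250 bases before its start are shown because Pf4 had the largest ratio, with matches to an ETS motif in capitals (AGGAAG or CGGAAG on either strand). This and the sequences below are from RefSeq, build GRCm38.p6, 5′ to 3′ on the gene's strand, and were found for 7 of the 9 members.
Pf4 (chr5:90772185-90772434, plus strand): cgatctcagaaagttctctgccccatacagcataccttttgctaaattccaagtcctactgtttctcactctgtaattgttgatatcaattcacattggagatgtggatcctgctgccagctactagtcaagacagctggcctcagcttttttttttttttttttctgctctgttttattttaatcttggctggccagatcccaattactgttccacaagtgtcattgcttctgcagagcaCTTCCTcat

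Ppbp, the precursor of beta-thromboglobulin, is a second platelet CXC chemokine and the direct neighbour of Pf4 on chromosome 5. Its log2 intensity was 8.06, 7.42 and 8.70 in the null cultures, against 6.40, 6.00 and 6.16 in the heterozygous cultures. The groups did not overlap, and no array had the heterozygous signal well above background. Ppbp thus passed the filter through its null signal alone. Its own heterozygous signal was above the lowest signal called well above background on all 3 arrays, so its bound equals the fitted ratio. By this fit the level was at least 3.66-fold higher in the null RNA (log2 ratio 1.87, SE 0.18, n = 3, limma adjusted p = 4.40e-05). The bound holds for this processing only, the ratio being 2.68-fold in the authors' deposited table and 2.90-fold without replicate 3. This ratio depends most on how the background is treated, being 36.6-fold from the processed signals of the scanner software, and it was 0.18 on the log2 scale with replicate 3 as labelled. The neighbouring genes were looked up once the members' values were known. Cxcl5, on the other side of Ppbp, was likewise dim in every heterozygous channel and passed the filter through its null signal alone. Its null level was at least 1.52-fold higher (limma adjusted p = 0.00156). Rassf6, next along, fell by 0.71 (SE 0.13, limma adjusted p = 0.00138), and Cxcl3 and Cxcl15, beyond Pf4, were too dim to be tested.

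Both integrin chains rose. Itga2b encodes the alpha chain of the fibrinogen receptor. Its log2 intensity was 8.46, 8.03 and 8.34 in the null cultures, against 6.90, 6.56 and 6.82 in the heterozygous cultures. The groups did not overlap, and the 3 arrays gave closer ratios for this gene than for any other member, with an SD of 0.049. The log2 ratio was 1.52 (SE 0.08, n = 3, limma adjusted p = 1.69e-06), a 2.87-fold higher signal, or 5.80-fold with processed signals and 1.91-fold in the authors' deposited table. With replicate 3 as labelled it was 0.50. Its upstream sequence is shown because 2 ETS matches lie in it, in capitals.
Itga2b (chr11:102469884-102470133, minus strand): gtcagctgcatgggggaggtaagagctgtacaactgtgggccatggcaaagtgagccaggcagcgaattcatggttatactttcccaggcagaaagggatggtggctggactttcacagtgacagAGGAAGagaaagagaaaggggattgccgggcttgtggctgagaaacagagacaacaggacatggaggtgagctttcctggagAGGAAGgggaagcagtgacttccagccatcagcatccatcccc

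Itgb3, the beta chain that pairs with Itga2b and in other cells with the alpha-V chain, had a brighter and a dimmer probe. On the brighter, the log2 intensity was 11.63, 11.04 and 11.82 in the null cultures, against 10.10, 9.99 and 10.49 in the heterozygous cultures. The groups did not overlap, and the log2 ratio was 1.30 (SE 0.10, n = 3, limma adjusted p = 1.39e-05), or 2.47-fold, and 0.42 with replicate 3 as labelled. On the dimmer probe, whose heterozygous signal stood well above background on 1 of 3 arrays, the values were 6.40, 6.65 and 6.35 in null cultures, against 6.13, 6.43 and 6.15 in heterozygous cultures. These overlapped between arrays, with a log2 ratio of 0.23 (SE 0.08, limma adjusted p = 0.0373 over probes). The 2 probes thus gave the same sign and different sizes, and their mean was 0.77.

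Of the von Willebrand receptor subunits, Gp9 rose more than Gp5 and Gp1bb on each array. Gp9, the small subunit without which the complex does not reach the surface, had a log2 intensity of 9.39, 8.11 and 9.15 in the null cultures, against 6.80, 6.56 and 6.49 in the heterozygous cultures. Replicate 2 was the low null culture and still stood above all heterozygous ones. The log2 ratio was 2.27 (SE 0.19, n = 3, limma adjusted p = 1.85e-05), a 4.81-fold higher signal. It was 19.5-fold with processed signals, 3.45-fold in the authors' deposited table, and 0.49 on the log2 scale with replicate 3 as labelled. Gp5, the subunit that thrombin cleaves, had a log2 intensity of 7.07, 6.77 and 7.12 in the null cultures, against 6.49, 6.33 and 6.36 in the heterozygous cultures. These groups lay close together without overlap, and the log2 ratio was 0.59 (SE 0.09, n = 3, limma adjusted p = 0.000613), or 1.51-fold. It was 4.30-fold with processed signals, 1.37-fold in the authors' deposited table, and 0.09 on the log2 scale with replicate 3 as labelled.

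Gp1bb, the chain linked by a disulphide bond to GPIb alpha, gave the least firm rise. Its brightest probe had a log2 intensity of 7.34, 6.97 and 6.92 in the null cultures, against 6.87, 6.53 and 6.77 in the heterozygous cultures. The null values stood just above the heterozygous ones, and the log2 ratio was 0.35 (SE 0.09, n = 3, limma adjusted p = 0.0111), or 1.28-fold, and 0.25 with replicate 3 as labelled. The call was lost without replicate 1 (adjusted p = 0.0732), without replicate 2 (adjusted p = 0.0719) and in the authors' deposited table (0.18, adjusted p = 0.193). The other 2 Gp1bb probes were not well above background in either channel of any array. In the RefSeq table Gp1bb overlaps Septin5, so signal of the 2 genes may not be parted by this probe, and Septin5 itself did not pass (log2 ratio -0.10, limma adjusted p = 0.365). Gp1ba, which encodes the von Willebrand binding chain of the same complex and is not among the 9, rose 4.21-fold (log2 ratio 2.07, SE 0.14, limma adjusted p = 5.46e-06), with a log2 ratio of 3.36 from processed signals.

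The upstream sequences of the receptor genes are shown because GATA matches (GATAA or GATAG after an A or a T, on either strand) occur in Gp5 and a RUNX match (TGTGGT or TGCGGT on either strand) in Gp9. Capitals mark matches to any of the 3 motifs, and no match overlapped another.
Gp9 (chr6:87777820-87778069, plus strand): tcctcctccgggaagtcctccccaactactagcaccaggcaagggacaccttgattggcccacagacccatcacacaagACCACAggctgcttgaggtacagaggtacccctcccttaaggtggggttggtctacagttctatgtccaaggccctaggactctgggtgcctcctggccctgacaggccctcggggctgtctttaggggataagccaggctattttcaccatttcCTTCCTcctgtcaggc
Gp5 (chr16:30310782-30311031, minus strand): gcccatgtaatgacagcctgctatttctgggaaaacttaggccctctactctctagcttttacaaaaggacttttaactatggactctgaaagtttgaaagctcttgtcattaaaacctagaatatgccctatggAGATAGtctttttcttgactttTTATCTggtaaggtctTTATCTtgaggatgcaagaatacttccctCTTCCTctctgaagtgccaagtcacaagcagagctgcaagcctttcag
Gp5 holds 3 GATA matches between positions -115 and -72 from its start and 1 ETS match, and Gp1bb, not printed, holds 1 of each. An ETS match was present in 5 of 7 member promoters, those of Pf4, Itga2b, Gp9, Gp1bb and Gp5, and in 39.2% of the 32851 promoters in the table over the same length. A GATA match was present in 2 of 7 member promoters and in 26.5% of all, and a RUNX match in 1 of 7 and in 18.6% of all. The Ppbp and Treml1 sequences held none of these letters. The matches followed no order of the ratios, since Treml1 and Ppbp rank above Gp5 and Gp1bb among the members. They describe letters in a window and not sites in use.

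**Figure D2:**
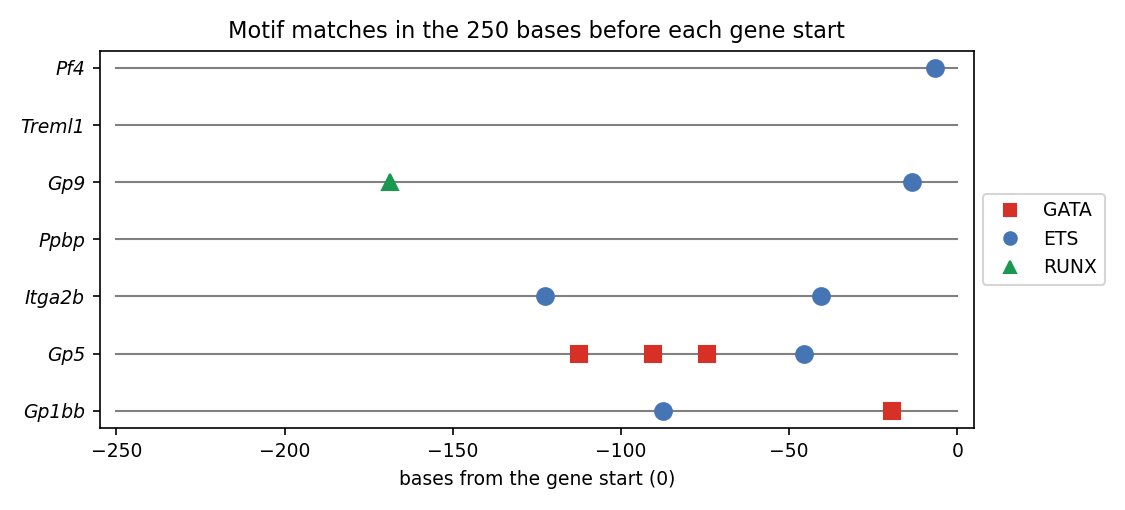
Matches to GATA (squares), ETS (circles) and RUNX (triangle) letters along the 250 bases before the start of the 7 members with a sequence, ordered from the highest to the lowest ratio and plotted by distance from the start. Gp5 has 3 GATA matches, and the lines of Treml1 and Ppbp are empty.

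Treml1, a receptor stored in the alpha granule and brought to the surface of activated platelets, had a log2 intensity of 10.45, 9.50 and 10.38 in the null cultures, against 7.45, 7.20 and 7.30 in the heterozygous cultures. No null culture came near a heterozygous one. The log2 ratio was 2.79 (SE 0.15, n = 3, limma adjusted p = 1.42e-06), or 6.92-fold, and 0.74 with replicate 3 as labelled. With processed signals it was 11.8-fold.

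Vwf, the ligand of the GPIb-IX-V complex, did not rise. Its log2 intensity was 10.16, 9.64 and 9.95 in the null cultures, against 10.42, 10.39 and 10.15 in the heterozygous cultures. The groups overlapped across arrays, though the null signal was the lower on each of the 3 arrays. The log2 ratio was -0.40 (SE 0.12, n = 3, limma adjusted p = 0.0154), and it stood at -0.27 with replicate 3 as labelled. The fall rests on replicate 2, without which it was -0.23 (adjusted p = 0.134). It was lost from the processed signals (-0.39, adjusted p = 0.0518) and with median centring without loess (-0.05, adjusted p = 0.819), where the median of all genes was 0.23. Cd9, the gene beside Vwf on chromosome 6 and also a platelet surface protein, fell by 1.30 (SE 0.09, limma adjusted p = 7.38e-06). Ano2, on the other side of Vwf, was dim in every heterozygous channel and passed the filter through its null signal alone. Its fitted log2 ratio was 0.30 (limma adjusted p = 0.0229).

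**Figure D3:**
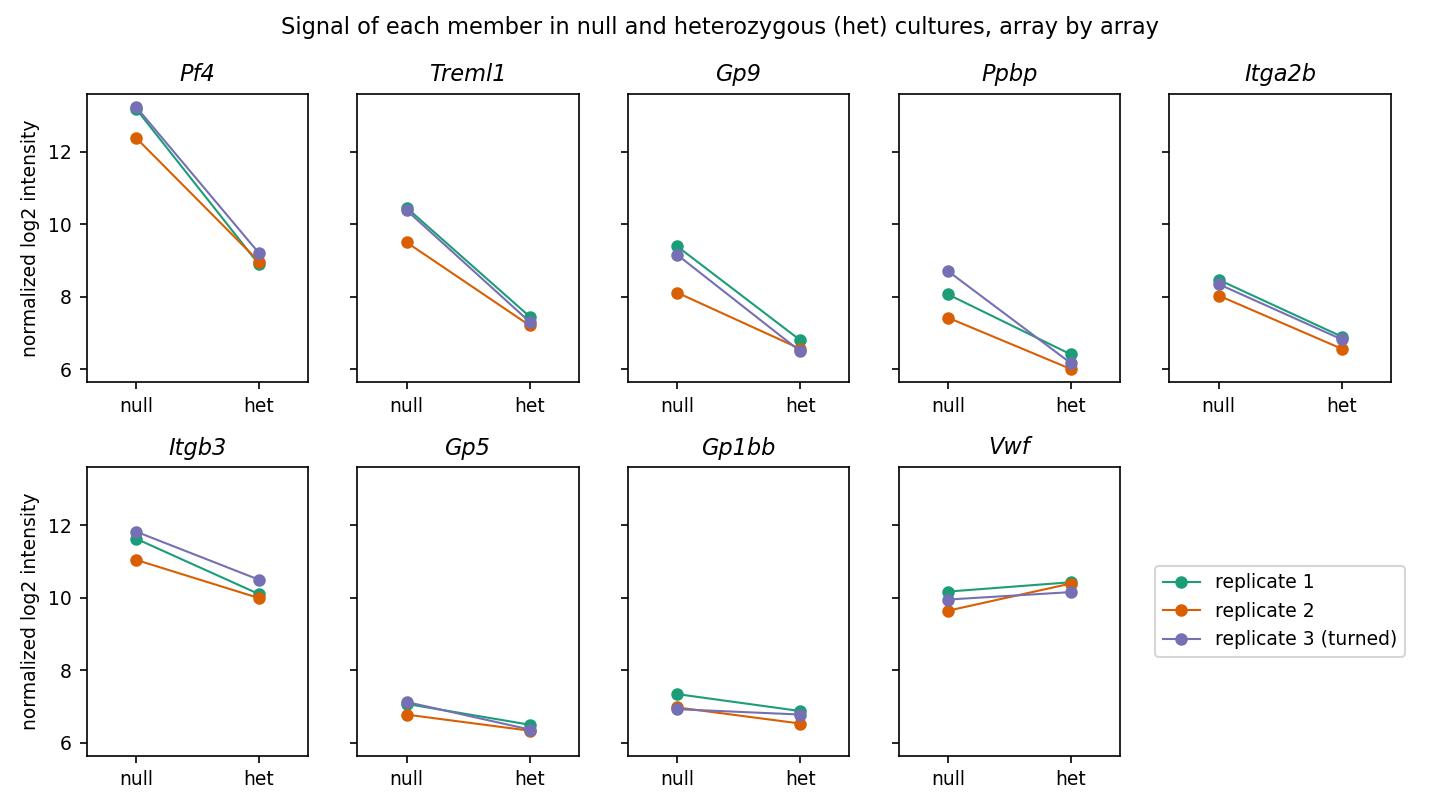
Normalized log2 intensity of each member in the null culture (left) and the heterozygous culture (right) of each array, joined by a line, with replicate 3 turned. In 8 members every null value is above every heterozygous value, while the lines of Vwf rise to the right. Heights compare within a panel only, since probes differ in brightness.

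Across the members, 8 of 9 had null values above all heterozygous values, as did 26.3% of all genes. Ppbp is 1 of these 8, though its heterozygous signal was not well above background on any array. Ordered by ratio, Pf4 exceeded Treml1 by 1.13 (SD 0.17 over 3 arrays) and Treml1 exceeded Gp9 by 0.52 (SD 0.19), both on every array. Gp5 and Gp1bb did not differ beyond their spread (0.24, SD 0.33). Ppbp has no settled place in the order, since its heterozygous level is not known above background. Itgb3 exceeded Gp5 by 0.71 (SD 0.21). The order is that of the fitted ratios. With processed signals, which add no offset, Ppbp (5.19 on the log2 scale) came before Gp9 (4.29) and Pf4 (4.20), and the offset of 50 lowers the ratios of dim probes by construction.

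The members also shared a pattern over arrays. Replicate 2 had the lowest ratio for 8 of the 9, Gp1bb being lowest on replicate 3. For Vwf this was its largest change (-0.75), and for Itga2b the 3 ratios lay close together (1.57, 1.47 and 1.52). Of all genes tested, 32% were lowest on replicate 2. The SD of all genes' ratios was 0.655, 0.686 and 0.706 on replicates 1, 2 and 3, and the cause of the pattern was not tested. Replicate 2 was lowest as well for 12 of 15 erythroid markers, 12 of 15 endothelial markers and 12 of 17 platelet receptor genes. The same held for 11 of the transcription factors with a value on all 3 arrays. It was lowest for 10 of 21 granule genes, 4 of 9 macrophage and mast cell markers and 1 cardiac marker. By Euclidean distance over the 3 array ratios, the named genes nearest to Pf4 were Mesp1 (0.82), Rbbp9 (0.98) and Trh (1.04). For Mesp1 and Trh replicate 2 had the highest ratio, and for Rbbp9 replicates 2 and 3 were level at 3.45.

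The wider megakaryocyte programme was read from lists of other genes. Of 20 further platelet receptors and their signalling proteins, 17 were tested. Of these 14 rose and 2 fell, against 30.2% and 30.1% of all genes, and 11 rose at least 2-fold, against 4.87%. Their median log2 ratio was 1.35, or 2.14 from processed signals. Their median level ran from 8.68 to 9.37 in null cultures and from 7.14 to 7.49 in heterozygous cultures. Some of the 17 passed the filter through their null signal alone. With both channels required to be well above background, 12 of 15 rose and 2 fell, with a median of 1.60. Under that filter 5386 of 18052 genes rose and 5585 fell. Rasgrp2, an activator of Rap1 that switches integrins on, rose by 2.08 (SE 0.10), Plcg2, the phospholipase below the collagen receptor, by 2.05 (SE 0.09), and Fermt3, the kindlin of blood cells, by 1.84 (SE 0.10, or 2.74 from processed signals). Gp6, the collagen receptor, passed the filter through its null signal alone. By this fit Gp6 was at least 1.27-fold higher (limma adjusted p = 0.00718). It lost its call without replicate 1 and in the authors' deposited table. P2ry12 and Itga2 were not well above background in any channel.

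Granule, enzyme and cytoskeleton genes went both ways. Of 21 tested, 11 rose, 6 fell and 4 did not pass, with a median log2 ratio of 0.26. Over all genes tested 30.2% rose and 30.1% fell, so the count of falls is near the share of all genes. Some of the 21 passed the filter through their null signal alone. With both channels required to be well above background, 8 of 17 rose and 6 fell, with a median of 0.17. Under that filter 5386 of 18052 genes rose and 5585 fell. Plek, pleckstrin, the main substrate of protein kinase C in platelets, rose by 3.08 (SE 0.22), and Mmrn1, the granule carrier of factor V, by 1.66 (SE 0.13, or 3.15 from processed signals). Srgn, the proteoglycan that holds Pf4 in granules, fell by 4.98 (SE 0.10), and Sparc, a matrix protein also present in granules, by 1.70 (SE 0.10), its other probe being at -0.09. Srgn and Sparc are made by many other cells, parietal endoderm among them.

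Of 20 transcription factors of megakaryocytes, 11 rose (30.2% of all genes did), 3 fell (30.1% did) and 6 did not pass, with a median of 0.30. Those that rose most were Lyl1 (2.27, SE 0.11), Nfe2, needed for platelet release (2.05, SE 0.12, or 2.67 from processed signals), Tal1 (1.97, SE 0.08) and Gata1 (1.97, SE 0.09), and Fli1, an ETS factor of the lineage, rose by 1.92 (SE 0.09). Gata1 was at 2.14, 1.85 and 1.92 on the 3 arrays, all well above 0. Runx1 fell by 1.18 (SE 0.08) on its brighter probe and stood at 0.08 on its other probe (limma adjusted p = 0.510 over probes). Gata2, a factor of earlier progenitors named after its value was seen, fell by 0.55 (SE 0.09, limma adjusted p = 0.000983).

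**Figure D4:**
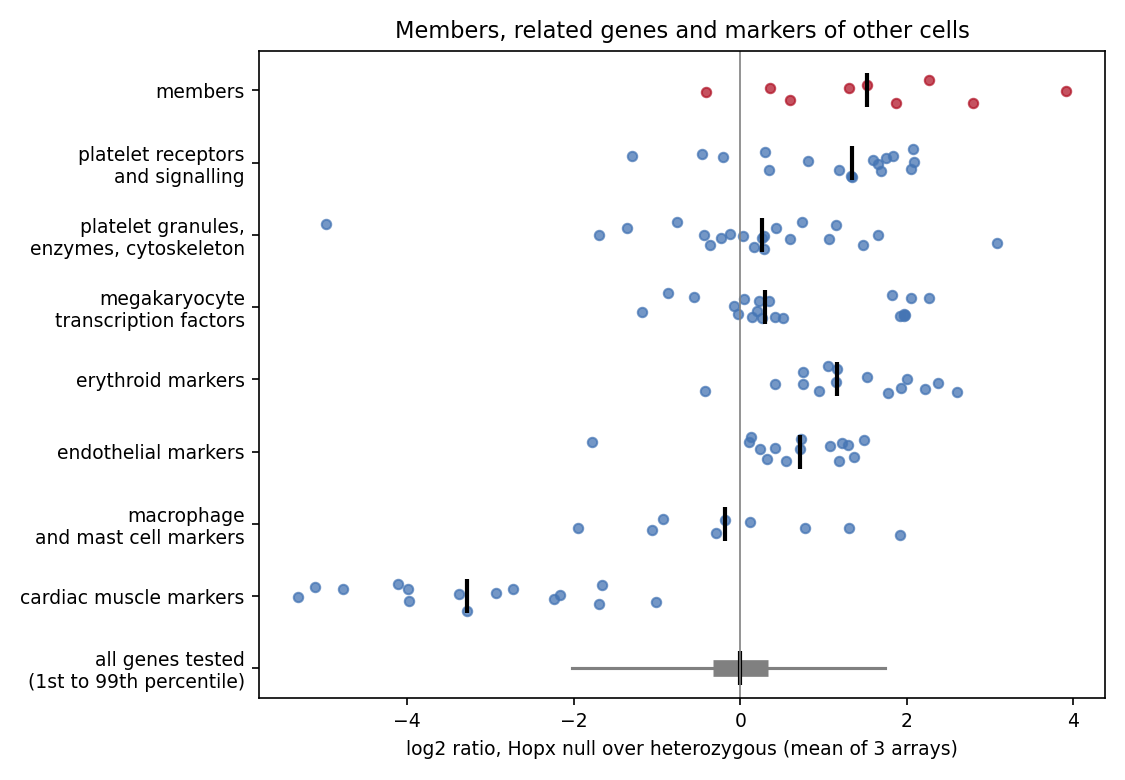
Mean log2 ratio of null over heterozygous for the 9 members (top) and for the tested genes of each related list, a point per gene and a black bar at the median. The lowest line gives all genes tested, with a box from the 25th to the 75th percentile and a line from the 1st to the 99th. The members, platelet receptors and erythroid markers have medians of 1.52, 1.35 and 1.16, and the cardiac markers lie below 0.

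Erythroid and most endothelial markers were higher in null cultures as well, while macrophage and mast cell markers went both ways. Beside the counts below, 30.2% of all genes tested rose and 30.1% fell. Of 15 erythroid markers 14 rose and 0 fell, with a median log2 ratio of 1.16, or 1.92 from processed signals. Their median level ran from 10.31 to 11.15 in null cultures and from 8.41 to 8.94 in heterozygous cultures. With both channels required to be well above background, 11 of 12 erythroid markers rose and 0 fell, as 5386 and 5585 of 18052 genes did. Slc4a1, the red cell anion exchanger, was highest at 2.61, followed by Hba-x at 2.38, Alas2 at 2.22 and Hbb-y at 2.01. Hba-x and Hbb-y are embryonic globins and Alas2 starts haem synthesis in red cells. Of 15 endothelial markers 12 rose and 1 fell, with a median of 0.72 and median levels from 9.53 to 10.30 in null cultures and from 8.87 to 9.26 in heterozygous cultures. Plvap rose by 1.49, Cldn5 by 1.36, Robo4 by 1.29 and Pecam1 by 0.33, while Sox17, which endoderm makes too, fell by 1.78. Vwf thus did not rise where 12 of the 15 endothelial markers rose. Of 14 macrophage and mast cell markers 9 were tested, 3 rose and 4 fell, and counts in so few genes say little beside the shares of all genes. Their median was -0.18, with median levels from 8.15 to 8.48 in null cultures and from 7.86 to 8.52 in heterozygous cultures. With both channels required to be well above background, 2 of 7 rose and 4 fell. Cx3cr1 passed the filter through its null signal alone and was at least 3.79-fold higher, and Tyrobp rose by 1.31 (2.17 from processed signals). Csf1r fell by 1.95, its other probes being at -0.22 and -0.56, and Cd68 by 1.06. Lyz2, Cpa3 and Fcer1a were not well above background in any channel, Spi1 was so in the null channel of 1 array, and the pan-leukocyte gene Ptprc in the null channel of 2 and the heterozygous channel of 1. The part of erythroid, endothelial and other blood cells in the members' ratios was not tested. With replicate 3 as labelled, limma called 0 genes of each of these lists, with medians of 0.40 for platelet receptors, 0.05 for granule genes, 0.13 for transcription factors, 0.61 for erythroid markers, 0.18 for endothelial markers and -0.06 for macrophage and mast cell markers.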

How the data were processed

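Per the file headers, the deposited spot intensity, local background and flag of each channel came from Agilent Feature Extraction 11.5.1.1. Version 8.5.1.1 stands in the submitters' processing notes. The authors also deposited a value table of their own processed ratios, how they were normalized not being stated, which were taken as log2 since their slopes on the scanner ratios of bright probes were 0.946, 0.953 and -0.948. The column medians of the authors' values were -0.10, -0.11 and 0.07. All 3 arrays shared 1 slide and 1 scan, so neither could serve as a block.

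With limma 3.58.1 in R 4.3.3, median signals were corrected by normexp (offset 50) and normalized by loess. Control and outlier spots had weight 0, and spots of a probe were averaged. Replicate 3 was turned, leaving 2 arrays in one dye orientation and 1 in the other, between which a dye effect cancels in part. The filter asked for a null signal, or a heterozygous signal, well above background on all 3 arrays and kept 24553 of 39429 probes. Ratios were tested against 0 (lmFit, eBayes, two-sided) with Benjamini-Hochberg adjustment over 19803 genes at their brightest probe. An adjusted p "over probes" covers the 24553. Every SE is moderated. Levels of each channel followed Aquantile scaling, and bounds ("at least") are open to dye bias. Each bound equals its fitted ratio and holds for this processing only, and its gene passed the filter through the null signal alone. RefSeq accessions named 71.1% of probes (GRCm38.p6). The array design is on mm9, so coordinates are printed for promoters only. The method was tested on simulated data. The members and lists were chosen with earlier results of these data known. Named genes are the 9 members, Hopx, up to 4 called genes of each list with the largest change, the 3 nearest to Pf4, and Gp1ba, Gp6, Gata1, Nfe2, Fli1, Runx1, Tal1 and Pecam1; a further named gene is not reported here. Neighbouring genes, Gata2 and genes named as too dim lie outside this rule. Alternatives changed the background, normalization, filter, replicates, direction of replicate 3, dye term, source, spread, pairing and probe rule.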

Additional observations from a re-analysis of the deposited data

How the results depend on the processing

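Pf4, Treml1 and Itga2b kept their call and direction under every alternative except replicate 3 as labelled, and so did Gp9, Ppbp, Itgb3 and Gp5 but for the ordinary t statistic (adjusted p from 0.0507 to 0.0809), which does not share spread between probes. Ppbp could not be tested where both channels had to be above background. Gp1bb and Vwf were called in 7 and 7 of 13 alternatives. With replicate 3 as labelled, limma called 0 of 19803 genes (61 at an unadjusted p under 0.05), 0 members and 0 genes of each of the 7 related lists (0 at an unadjusted p under 0.05 in each), with a members' median of 0.42, as follows from 1 array of opposite sign. The ordinary t statistic called 4122 genes and 3 members, and 9 platelet receptor, 6 granule, 8 transcription factor, 3 endothelial, 3 macrophage and mast cell and 0 erythroid genes (12 at an unadjusted p under 0.05, and 14 called by the moderated test). The members' median log2 ratio was 2.54 with processed signals, 1.69 with median centring (median of all genes 0.23, 73.9% of calls higher against 50.1%), 1.41 with both channels above background (8 members) and 1.24 in the authors' deposited table. Granule genes called were 11 in that table and 11 when the channels were fitted as separate samples (no replicate block), where 7 members were called, Gp1bb (adjusted p = 0.101) and Vwf (adjusted p = 0.0752) being lost. The cause of these changes was not tested. Without each replicate in turn, 9830 to 11845 genes and 7 to 9 members were called. The macrophage and mast cell median turned to 0.06 with median centring and to 0.01 with no filter on dim probes. Less the median of all genes, it was -0.17 with median centring, 0.01 with no filter and -0.19 in the main fit. Ratios taken within each array already pair the genotypes, so separate channels are the unpaired alternative. The depth of signal limits Ppbp, Gp9 and Gp5 most, whose heterozygous spots read 34 to 53, 48 to 64 and 41 to 62 before correction.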
